A study of Homo sapiens with 12 samples.

Results

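A set of 10 immediate-early genes, FOS, FOSL1, FOSL2, JUN, JUNB, EGR1, ATF3, IER2, IER3 and DUSP1, were followed in total RNA and in ribosome footprints (RF) of PANC-1 cells. The genes were picked by name as short-lived mRNAs whose level could move within 1 h of treatment, and all 10 were found among the 20212 genes of the count table. PANC-1 is a long-established line of human pancreatic carcinoma, labelled as pancreatic duct. The cells were treated with DMSO, the solvent control, or for 1 h with 50 nM rapamycin, an inhibitor of the mTORC1 kinase complex. The labels give no time for DMSO. Both groups grew in the same serum-containing medium. There were 3 cultures per treatment, each sequenced as 1 RF and 1 total RNA library, 12 libraries in all. Footprints are the short mRNA fragments that a ribosome shields from nuclease. The translation efficiency (TE) of a gene is its RF level relative to its total RNA level.

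Immediate-early genes are switched on by growth factor and stress signals without new protein synthesis. Many of their mRNAs carry AU-rich elements in the 3′UTR, are bound by decay factors and are short-lived, so a change in transcription or decay shows quickly in their level. FOS and JUN proteins pair through leucine zippers to form AP-1 transcription factors, which act downstream of the MAPK pathway.

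The RF counts summed to between 278835 and 1574723 per library, and the total RNA counts to between 78081241 and 94293744. CPM below are counts scaled by library size, with TMM factors within a library type, and the 3 counts that a count of 0 still allows correspond to 2.03 to 9.93 CPM in RF libraries. This limit covers counting error only. Libraries of DMSO cultures 1 and 2 detected 16840 and 16858 genes in total RNA and the other 4 between 19751 and 19847. The total RNA of rapamycin culture 2 also stood apart: of 4670 genes with at least 50 CPM, 87 (1.86%) were at least 1.297 times the mean of the other 5 libraries there, against 0 to 5 genes in any other library. The cut of 1.297 is the ratio of EGR1 itself in that library, and only high values were counted. Among markers of ductal epithelium, 8 were at 1 FPKM (fragments scaled by transcript length and library size) or more in every total RNA library, with KRT8, KRT18 and KRT19 between 1326 and 1765 FPKM, while CFTR and CA2 were under 1. All 5 acinar and all 4 endocrine markers stayed under 1 FPKM, and of 4 leukocyte markers CD68 alone was above it, at 69.0 to 88.3 FPKM. Of 4 fibroblast markers, COL1A1 reached 0.674 to 1.53 FPKM and the other 3 stayed under 1, as did the 2 endothelial markers matched.

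The pentamer ATTTA, the core of AU-rich elements, was counted on the transcript strand in the annotated 3′UTR of each gene's most abundant protein-coding isoform, with overlapping copies counted. It occurred in 9 of the 10 genes, and in 66.6% of the 12637 tested genes with a 3′UTR. At least 4 copies per kilobase were found in 4 members, IER3 (8.14), FOS (6.20), DUSP1 (6.01) and JUNB (4), and in 16.2% of the tested genes. The longer form TTATTTA was found in FOS, FOSL2, ATF3 and DUSP1, and in 28.2% of the tested genes. IER2 had no ATTTA in its 1053-base 3′UTR. The 4 windows of 30 bases with 2 copies are shown because they hold the densest runs of ATTTA among the members. Over its whole 3′UTR, FOSL2 had 1.85 copies per kilobase, against a median of 1.48 over the tested genes. ATTTA is in capitals, in GRCh37.
FOS, chr14:75748761-75748790, plus strand: tgtgtttttaATTTATTTAttaagatggat
FOSL2, chr2:28639216-28639245, plus strand: attgacATTTAttttattATTTAttttaaa
IER3, chr6:30711424-30711453, minus strand: aattaatATTTAtatgtATTTAtgtacgtc
DUSP1, chr5:172195643-172195672, minus strand: gctggtccttATTTATTTAacttcacccga
In FOS and DUSP1 the copies overlap to form ATTTATTTA, and in FOSL2 and IER3 they are spaced. A match is a string of letters and not a measured decay site.

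All 10 genes were expressed in every culture. Per length of transcript, FOS was highest with a mean of 219 FPKM over the 6 total RNA libraries, followed by IER3 (192), FOSL1 (152), DUSP1 (146), JUN (88.6), JUNB (65.6), ATF3 (60.2), IER2 (49.2), EGR1 (46.3) and FOSL2 (15.4). The median over the 13322 tested genes with a value was 11.0 FPKM, and the members stood at percentiles 59.1 (FOSL2) to 97.6 (FOS). In DMSO, the cultures of neighbours in this order overlapped only for JUNB and ATF3. With rapamycin they overlapped only for FOSL1 and DUSP1 and for IER2 and EGR1.

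None of the 10 genes passed an adjusted p under 0.05 in total RNA after 1 h of rapamycin. Their changes lay between -0.083 (IER3) and 0.11 (EGR1) on the log2 scale, 5 up and 5 down, with a median of -0.0053 against 0.0059 over all 13329 genes tested. The members' adjusted p ranged from 0.766 to 0.85 (edgeR quasi-likelihood, Benjamini-Hochberg over all genes tested). The background was the same, with 0 genes called in the whole table (0%). At an unadjusted p under 0.05, 1 member (FOS) was counted beside 5.82% of all genes tested. DESeq2 called 0 members and 29 genes (0.218%), with FOS again the 1 member at an unadjusted p under 0.05 (6.17% of all genes). The 95% intervals excluded a change of 1.2-fold or more in either direction for 9 of the 10 genes, and of 1.3-fold or more for all 10.

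**Figure D1:**
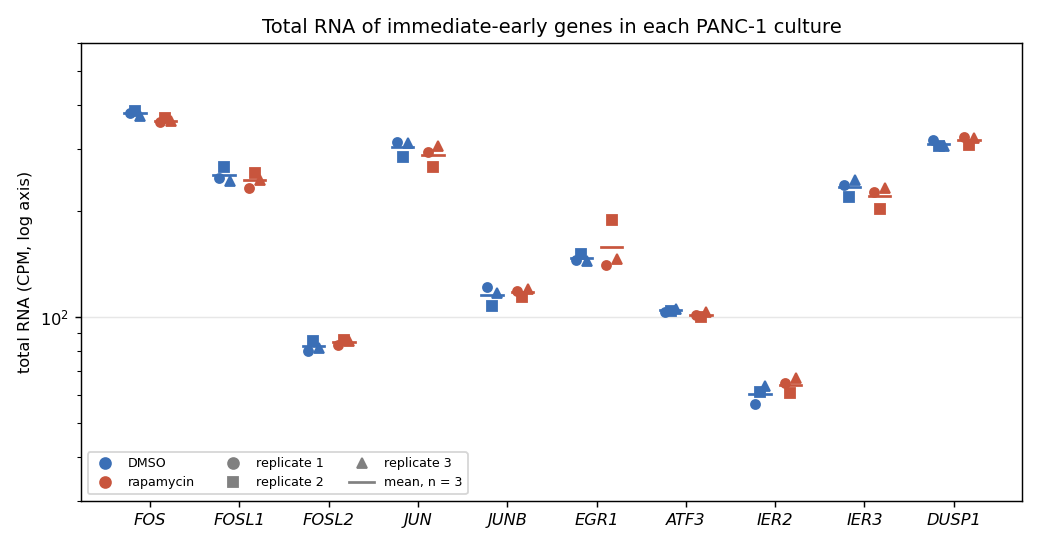
Total RNA level (CPM, log axis) of the 10 genes in each culture, DMSO in blue and rapamycin in red, with replicates 1, 2 and 3 as circles, squares and triangles and a bar at the mean of 3 cultures. Red and blue points mix for most genes, and EGR1 in rapamycin replicate 2 stands at 189 CPM.

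FOS (ENSG00000170345, chr14:75745529-75748933, plus strand) is the founding FOS family subunit of AP-1. It measured 381, 384 and 373 CPM in DMSO replicates 1, 2 and 3 and 358, 368 and 360.0 CPM with rapamycin. The 3 rapamycin cultures lay below the 3 DMSO cultures, with means of 379 ± 5.78 CPM in DMSO and 362 ± 5.50 CPM with rapamycin (SD, n = 3). This difference of -0.066 ± 0.029 (log2, SE), or 0.955-fold, had an adjusted p of 0.766 (edgeR quasi-likelihood, Benjamini-Hochberg), which was 0.531 to 0.999 over the alternatives. FOSL1 (FRA-1; ENSG00000175592, chr11:65659520-65668044, minus strand) lacks the transactivation domain of FOS. Its cultures ran from 244 to 268 CPM in DMSO and from 233 to 256 CPM with rapamycin, so they overlapped. FOSL2 (FRA-2; ENSG00000075426, chr2:28615315-28640184, plus strand) had the lowest level of the family per length, and overlapped at 80.0 to 85.7 and 83.4 to 86.2 CPM. Their changes were -0.049 ± 0.046 and 0.046 ± 0.037 (log2, SE).

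JUN (ENSG00000177606, chr1:59242517-59249720, minus strand) can form AP-1 with itself or with a FOS protein, and JUNB (ENSG00000171223, chr19:12902300-12904129, plus strand) is the weaker activator of the pair. JUN measured 315, 285 and 313 CPM in DMSO and 295, 268 and 306 CPM with rapamycin. In each treatment replicate 2 was the lowest, and the treatments overlapped (-0.071 ± 0.055, log2, SE). JUNB measured 122, 107 and 117 CPM in DMSO and 118, 114 and 120.1 CPM with rapamycin, which also overlapped (0.029 ± 0.047, log2, SE). Of the 1830 exonic bases of JUNB, 259 are shared with exons of HOOK2 on the opposite strand, and reads of the 2 genes could not be told apart there if strand was not used in counting.

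ATF3 (ENSG00000162772, chr1:212738676-212794119, plus strand), a stress-induced bZIP factor that can repress its targets, had the smallest spread of the 10. Its level was 104, 104 and 106 CPM in DMSO and 101, 99.9 and 103 CPM with rapamycin. With FOS it was 1 of 2 members whose rapamycin cultures all lay below the DMSO cultures, an order seen in 6.76% of all genes tested, and in 14.8% in either direction. The ATF3 change was -0.040 ± 0.031 (log2, SE), with an adjusted p of 0.766 in the same edgeR test. Its most abundant protein-coding isoform held 19.6% to 28.7% of the gene's FPKM, the lowest share among the members, where FOS had 53.0% to 57.7% and IER2 and IER3 over 91%.

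EGR1 (ENSG00000120738, chr5:137801168-137804992, plus strand) encodes a zinc-finger transcription factor. It measured 146, 151 and 145 CPM in DMSO and 140.3, 189 and 146 CPM with rapamycin. Rapamycin replicate 2 was 1.297 times the mean of the other 5 libraries, and the other 2 rapamycin cultures were inside or just under the DMSO range. The log2 change was 0.11 ± 0.11 (SE) with that culture and -0.039 without it, so this 1 library set its sign. This is the library named above as standing apart, by a cut taken from EGR1 itself, and its part in the EGR1 value was not tested further. The spread of EGR1 over the 6 libraries (SD 0.16 on the log2 scale) was at percentile 97.8 of the 4670 genes with at least 50 CPM. The median SD was 0.067 for the members and 0.047 for those genes.

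IER2 and IER3 are small nuclear and membrane-associated immediate-early products, and DUSP1 is the phosphatase that switches off MAP kinases. IER2 (ENSG00000160888, chr19:13261225-13265725, plus strand) ran from 56.4 to 63.7 CPM in DMSO and from 60.6 to 67.2 CPM with rapamycin (0.089 ± 0.054, log2, SE). IER3 (ENSG00000137331, chr6:30710976-30712325, minus strand) ran from 219.9 to 245 CPM and from 203 to 233 CPM (-0.083 ± 0.057). DUSP1 (ENSG00000120129, chr5:172195099-172198198, minus strand) ran from 306 to 318 CPM and from 308 to 324 CPM (0.040 ± 0.033). The treatments overlapped for all 3 genes. IER2 and IER3 share exonic bases with lncRNAs on the opposite strand, 946 of 3079 bases with 1 lncRNA for IER2 and 440 of 1350 with IER3-AS1 for IER3.

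**Figure D2:**
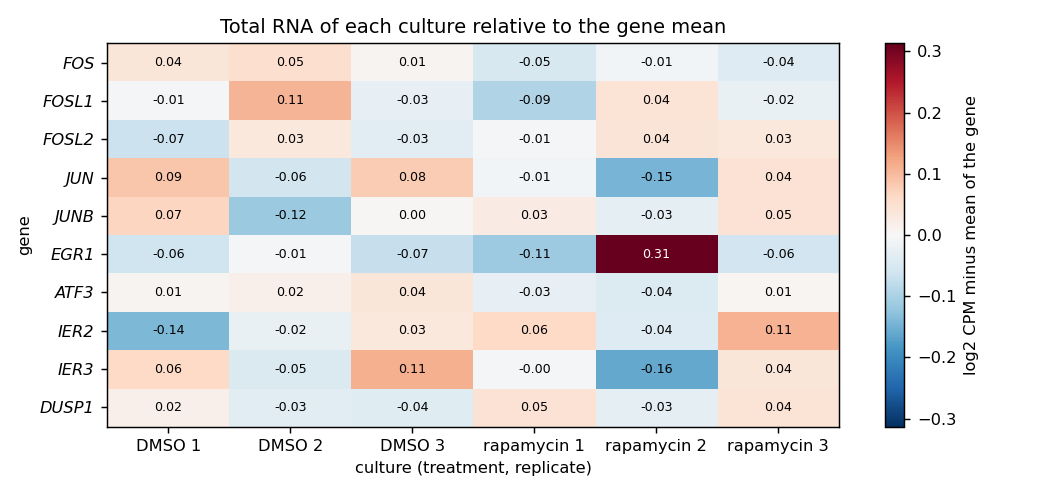
Total RNA of each gene in each of the 6 cultures as log2 CPM minus that gene's mean, printed in each cell and colored from blue (lower) to red (higher). The EGR1 cell of rapamycin replicate 2 is 0.31, and no column is of 1 color over the 10 genes.

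Single members deviated in opposite directions in the same culture. In rapamycin replicate 2, JUN and IER3 were at their lowest, at -0.15 and -0.16 from their means on the log2 scale, and EGR1 was at 0.31. JUN and IER3 were also both above their means in DMSO replicates 1 and 3 and in rapamycin replicate 3. Averaged over the 10 members, the centred log2 CPM lay between -0.017 and 0.019 in the 6 libraries. With so flat an average, the genes most like it by Pearson's r over the 6 libraries, among 11546 genes, were NSDHL (0.990), PYROXD1 (0.990), PMVK (0.982), HMG20B (0.972) and CCL28 (0.971), which is a description of libraries that share their scaling.

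In RF, again 0 of the 10 members passed the adjusted threshold, beside 0 of 13329 genes (0%) in edgeR's quasi-likelihood test, and 0 of 10 had an unadjusted p under 0.05 (3.68% of all genes). DESeq2 called 5 genes (0.0375%) and 0 members, and 0 members had an unadjusted p under 0.05 there (2.91% of all genes). The treatments overlapped in all 10, where 9.46% of all genes did not overlap. The RF values were less precise than those of total RNA. A member had 127 (ATF3) to 1379 (JUN) RF counts summed over 6 libraries, and the 95% intervals reached from 1.43-fold (FOS) to 3.06-fold (ATF3), with 5 of 10 under 2-fold, so the absence of calls does not show that RF levels were equal. Their median change was 0.0013 (log2), against 0.020 over all genes.

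**Figure D3:**
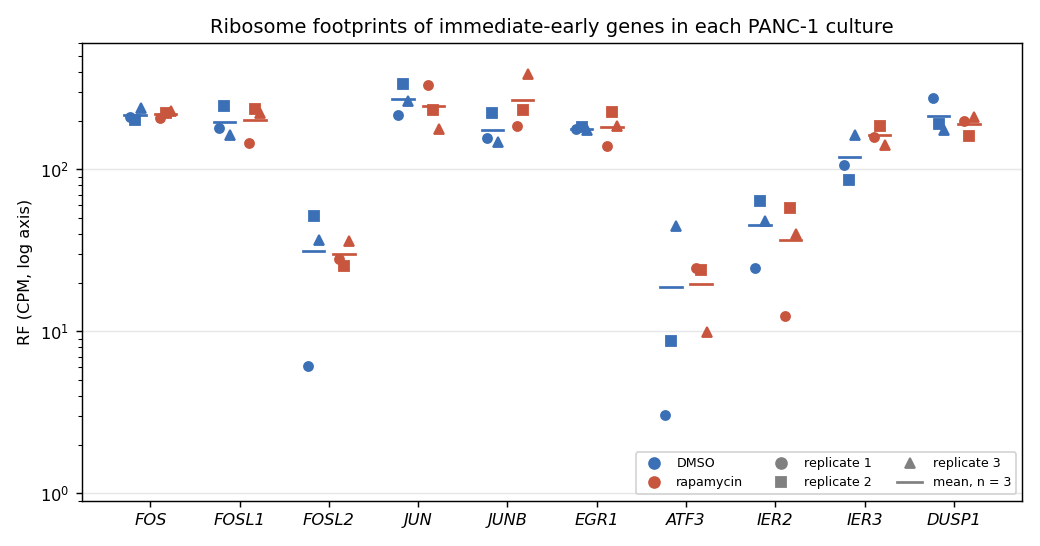
RF level (CPM, log axis) of the 10 genes in each culture, DMSO in blue and rapamycin in red, with replicates 1, 2 and 3 as circles, squares and triangles and a bar at the mean of 3 cultures. FOSL2, ATF3 and IER2 spread the most and JUNB is highest in rapamycin replicate 3 at 387 CPM.

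FOS footprints were the steadiest of the family, with 211, 202 and 240 CPM in DMSO and 207, 223 and 228 CPM with rapamycin (0.0083 ± 0.24, log2, SE). FOSL1 footprints ran from 163 to 247 CPM in DMSO and from 146 to 237 CPM with rapamycin. FOSL2 was read from only 2, 41 and 54 counts in DMSO and 34, 21 and 11 with rapamycin. DMSO replicate 1 of FOSL2 was thus at or under the 3 counts that a count of 0 allows.

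JUNB had the largest RF difference. Its footprints were 156, 223 and 148 CPM in DMSO and 184, 234 and 387 CPM with rapamycin. The 387 CPM of rapamycin replicate 3 rests on 117 counts in the smallest RF library, with an exact (Clopper-Pearson) 95% interval of 320.2 to 464 CPM. This interval covers counting error only and not the spread between cultures. The change was 0.59 ± 0.30 (log2, SE; 95% interval -0.038 to 1.22), or 1.51-fold, with an adjusted p of 0.9999 (edgeR quasi-likelihood, Benjamini-Hochberg). Without that culture it was 0.25. JUN footprints overlapped at 217 to 336 CPM in DMSO and 179 to 331 CPM with rapamycin (-0.14 ± 0.27, log2, SE).

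ATF3 footprints were the sparsest, at 1, 7 and 66 counts in DMSO and 30, 20 and 3 with rapamycin. The 1 and the 3 counts lie at or under the limit that a count of 0 allows, and DMSO replicate 3 held 66 of the 127 counts. The log2 change was -0.0057 ± 0.76 (SE), and 1.61 without DMSO replicate 3, so 1 library decided it. EGR1 footprints were 178, 183 and 175 CPM in DMSO and 139, 228 and 185 CPM with rapamycin. Rapamycin replicate 2, where EGR1 total RNA was highest, also held its highest RF value, in a separate library of the same culture. The 95% counting interval of that RF value, 196 to 262 CPM, overlapped that of DMSO replicate 1, 135 to 230 CPM.

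IER3 footprints were 107, 86.5 and 163 CPM in DMSO and 159.6, 185 and 142 CPM with rapamycin. Rapamycin cultures 1 and 3 were below DMSO replicate 3 and above the other DMSO cultures (0.45 ± 0.31, log2, SE). IER2 footprints came from 8 to 71 counts per library and spread over 24.5 to 63.9 CPM in DMSO and 12.4 to 57.8 CPM with rapamycin (-0.37 ± 0.58). DUSP1 footprints were 276, 192 and 175 CPM and 200.1, 160.1 and 212 CPM (-0.16 ± 0.27).

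In TE, 0 of 10 members and 0 of 13329 genes (0%) were called (edgeR quasi-likelihood, Benjamini-Hochberg), and 0 members but 12.6% of all genes had an unadjusted p under 0.05. DESeq2 called 1236 genes (9.27%) and 0 members. It gave an unadjusted p under 0.05 to 1 member, IER3 (adjusted p = 0.228, DESeq2), and to 21.7% of all genes. The TE of the treatments overlapped in all 10 genes, where 9.94% of all genes did not overlap. The members' median TE change was -0.061 on the log2 scale, the same as over all genes (-0.061).

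**Figure D4:**
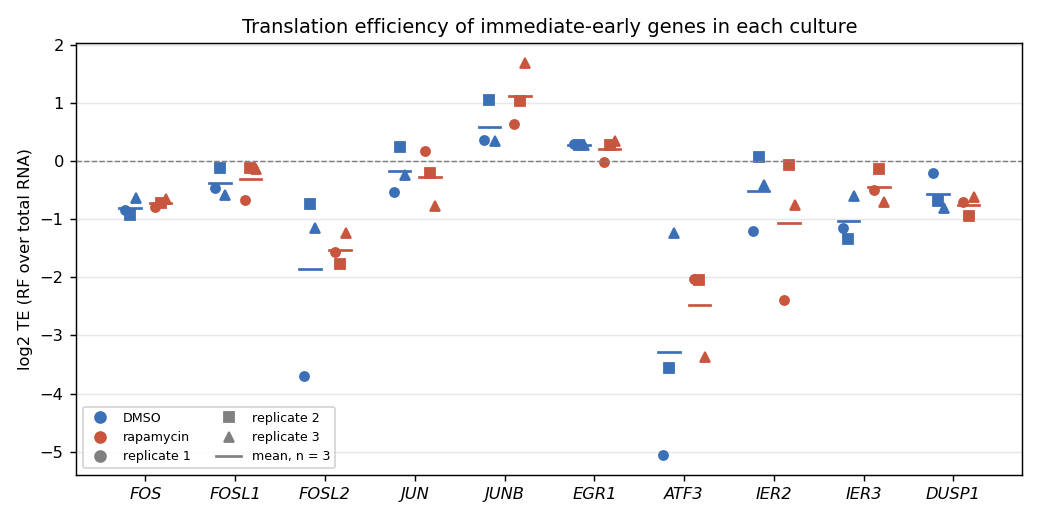
log2 TE (RF CPM over total RNA CPM) of the 10 genes in each culture, DMSO in blue and rapamycin in red, with replicates 1, 2 and 3 as circles, squares and triangles and a bar at the mean of 3 cultures. The dashed line marks equal CPM in RF and total RNA, with JUNB above it in all 6 cultures and ATF3, read from few RF counts, below it in all 6.

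The level of TE differed widely among the genes. RF and total RNA were both counted over all exons, UTRs included. UTR length differs among the genes, with a 3′UTR of 4869 of 6713 transcript bases for FOSL2 and 500 of 1830 for JUNB. Its part in these levels was not tested, so their order does not compare translation alone. In DMSO the mean log2 TE was highest for JUNB (0.59 ± 0.41, SD, n = 3, percentile 77.9 of tested genes) and EGR1 (0.28 ± 0.0072, percentile 74.6). It was lowest for ATF3 (-3.29 ± 1.93, percentile 13.1), and the median over tested genes was -0.94. The ATF3 mean joins -5.06, -3.56 and -1.24 in DMSO replicates 1, 2 and 3, from 1, 7 and 66 RF counts. Its low rank thus rests on sparse libraries. The RF over RNA ratios of EGR1 were 1.22, 1.21 and 1.21 in DMSO and 0.990, 1.21 and 1.27 with rapamycin. The DMSO ratios rest on 58, 146 and 258 RF counts. Counting error alone gave DMSO replicate 1 an RF interval (95%, Clopper-Pearson) of 135 to 230 CPM. Such close ratios are therefore no measure of precision. In rapamycin replicate 2 the ratio was 1.21, and whether its high EGR1 RNA carried over to RF was not tested.

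IER3 and JUNB had the largest positive TE changes. IER3 had RF over RNA ratios of 0.452, 0.393 and 0.663 in DMSO and 0.705, 0.913 and 0.611 with rapamycin. The treatments overlapped through DMSO replicate 3 and rapamycin replicate 3. The TE change of IER3 was 0.52 ± 0.28 (log2, SE; 95% interval -0.086 to 1.12) with an adjusted p of 0.467 (edgeR quasi-likelihood, Benjamini-Hochberg), and between 0.0973 (without DMSO replicate 3, where the change was 0.82) and 1 over the alternatives. JUNB had ratios of 1.28, 2.08 and 1.27 in DMSO and 1.56, 2.049 and 3.22 with rapamycin. Its change was 0.53 ± 0.33 (95% interval -0.17 to 1.24; adjusted p = 0.527, edgeR, Benjamini-Hochberg) and 0.23 without rapamycin replicate 3.

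IER2 had the largest negative TE change, -0.56 ± 0.57 (log2, SE), and it was 0.0013 without rapamycin replicate 1, whose ratio of 0.191 was the lowest of the 6. FOS, FOSL1, JUN, EGR1 and DUSP1 changed by -0.18 to 0.067. For FOSL2 and ATF3 the fitted change was -0.34 and -0.11, while the mean of the cultures' log2 TE was -1.86 in DMSO and -1.52 with rapamycin for FOSL2, and -3.29 and -2.48 for ATF3. The fit weighs libraries by their counts and the mean does not, and DMSO replicate 1 had 2 and 1 RF counts for these genes, so no direction can be read for them.

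**Figure D5:**
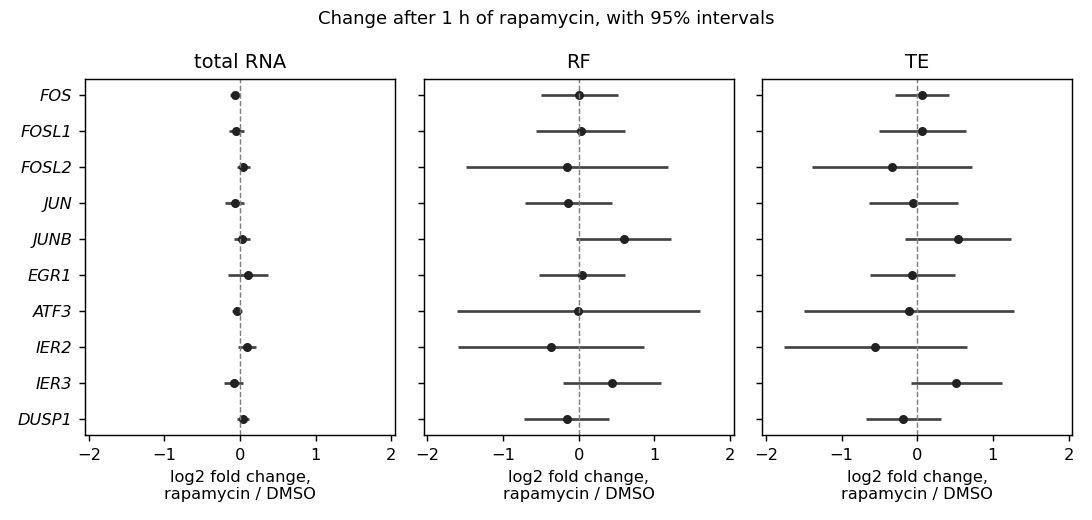
log2 fold change, rapamycin over DMSO, with 95% intervals for the 10 genes in total RNA, RF and TE, from edgeR fits to 3 cultures per treatment. The total RNA intervals lie within 0.38 of 0 in every gene, the RF and TE intervals include 0 in every gene and are much wider.

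Genes around the members were read from 5 lists, none of which had a gene called in total RNA, RF or TE (edgeR quasi-likelihood, Benjamini-Hochberg, 0% of all genes tested in each). In total RNA at an unadjusted p under 0.05, which 3.32% of all genes reached upward and 2.51% downward, 2 of 32 other immediate-early genes were higher and 2 lower. The 2 with the smallest p were NR4A2, an orphan nuclear receptor, and PLK3, a polo-like kinase. Genes named from this and the next lists were picked by p from the same values. That their treatments do not overlap is therefore no added support, and 14.8% of all genes tested did not overlap in total RNA. NR4A2 measured 4.61, 4.74 and 4.87 CPM in DMSO and 5.62, 7.23 and 5.76 CPM with rapamycin, so all rapamycin cultures were above (0.39 ± 0.10, log2, SE, 1.31-fold, adjusted p = 0.766, edgeR). Its highest value was in rapamycin replicate 2, the total RNA library that stood apart. PLK3 measured 24.4, 24.4 and 22.6 CPM and then 20.8, 19.2 and 22.0 CPM, all below (-0.21 ± 0.058, adjusted p = 0.766, edgeR). In this list 0 of 32 genes in RF and 3 in TE, 2 of them higher, had an unadjusted p under 0.05, beside 3.68% and 12.6% of all genes.

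Of 17 tested MAPK phosphatases and feedback inhibitors, 2 were higher in total RNA at an unadjusted p under 0.05 and 0 lower (3.32% and 2.51% of all genes). SPRY1, an inhibitor of receptor tyrosine kinase signalling, measured 41.3, 43.1 and 40.1 CPM in DMSO and 46.8, 48.3 and 44.8 CPM with rapamycin (0.17 ± 0.044, log2, SE, adjusted p = 0.766, edgeR). DUSP4, a nuclear MAPK phosphatase related to DUSP1, was near the bottom of the expressed range at 0.533, 0.750 and 0.621 CPM in DMSO and 1.68, 1.39 and 1.15 CPM with rapamycin. All 3 rapamycin cultures were above all DMSO cultures in both genes, which were picked by p (14.8% of all genes did not overlap in either direction). The DUSP4 difference of 1.15 ± 0.36 (log2, SE), or 2.21-fold, had an adjusted p of 0.766 (edgeR, Benjamini-Hochberg), and its adjusted p over the alternatives ran from 0.030 to 0.999. The lowest was without DMSO replicate 3, a setting in which 683 genes of the table were called higher and 4 lower. The DUSP4 difference ran from 0.11 on the log2(FPKM + 1) scale, which understates low genes, to 1.29. The 95% interval of DUSP1, by contrast, ran from 0.977-fold to 1.08-fold.

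Of 23 AU-rich element binding and decay factors, 0 were higher and 1 lower in total RNA at an unadjusted p under 0.05 (3.32% and 2.51% of all genes). This was ZFP36 (tristetraprolin), itself an immediate-early product, which binds UUAUUUA-type elements and recruits deadenylases. It measured 922, 949 and 918 CPM in DMSO and 833, 886 and 849.6 CPM with rapamycin, and the treatments did not overlap (-0.12 ± 0.034, log2, SE, 0.922-fold, adjusted p = 0.766, edgeR). The adjusted p of ZFP36 over the alternatives was 0.0599 (DESeq2) to 0.999. PARN, a deadenylase, was second in the list at -0.067 ± 0.032 and also did not overlap. In total RNA, the 4 members densest in ATTTA changed by -0.066 ± 0.029 (FOS), -0.083 ± 0.057 (IER3), 0.029 ± 0.047 (JUNB) and 0.040 ± 0.033 (DUSP1; log2, SE). JUNB was at -0.019 without DMSO replicate 2. None of the 4 was called, and the intervals of IER3, JUNB and DUSP1 included 0. Their signs therefore do not show whether these genes shared a direction. Of these genes, FOS and DUSP1 held TTATTTA, and IER3 and JUNB did not. FOSL2 and ATF3, which also held it, changed by 0.046 ± 0.037 and -0.040 ± 0.031 in total RNA and were not called. A link between the decay factors and these members was not tested.

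Of 19 tested AP-1 partners and of 8 tested genes of serum response factor (SRF) and its cofactors, 0 had an unadjusted p under 0.05 in total RNA (5.82% of all genes). In RF, 1 AP-1 partner and 0 SRF genes were higher and 0 of either lower at that p (3.68% of all genes in either direction). In TE, 3 AP-1 partners and 1 SRF gene were higher and 0 lower (12.6% of all genes). For the MAPK list these counts were 0 in RF and 1 higher in TE, and for the decay factors 1 lower in RF and 1 lower in TE. The AP-1 partners with the smallest p were JUND (-0.11 ± 0.059) and ATF7 (0.26 ± 0.15), and ATF7, like EGR1, was highest in rapamycin replicate 2, at 22.7 CPM against 14.5 to 15.9 CPM elsewhere. Those of the SRF list were FHL2 (-0.056 ± 0.031) and ELK1 (0.050 ± 0.041). SRF binds the CArG box, and in windows from 250 bases before to 50 after the start, taken from RefSeq on GRCh38.p14, exact matches on either strand were found in 1 of the 8 members with a window, EGR1, and in 1.29% of 35116 windows. They are shown, with the box in capitals, because EGR1 was the only member with a match. A link between the boxes and the EGR1 level was not tested.
EGR1, chr5:138465364-138465393, plus strand: gccggtcctgCCATATTAGGgcttcctgct
EGR1, chr5:138465386-138465415, plus strand: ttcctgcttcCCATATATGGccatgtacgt
The cyclic AMP response element TGACGTCA was found in DUSP1 (1.85% of windows) and the AP-1 site TGANTCA in FOSL2 (7.71%). TATAAA was found in FOS, JUNB, DUSP1 and ATF3 (11.5%). It began at -33, -31 and -30 from the start in FOS, JUNB and DUSP1. In ATF3 it began at -230, in 1 of its windows only. These are matches of letters and not measured binding. Sequence outside the windows was not searched, so a gene without a match here may hold one farther upstream.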

How the data were processed

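Members and gene lists were chosen with earlier results of these data known, and genes named from the lists are the 2 with the smallest unadjusted p in total RNA. The authors filtered RF reads (quality score of at least 25 over 75% of bases, minimum length 15 nt), removed ribosomal RNA and aligned to GRCh37 with HISAT2. They deposited raw counts of uniquely aligned reads on exons, made with featureCounts (strand setting not given in the sources used here), and FPKM values of total RNA from Cufflinks 2.2.1 (Cuffnorm). The 5 columns of their own comparison (TE per treatment, its fold change, p-values) were not used.

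The counts were analysed here with edgeR 4.0.16 in R 4.3.3 (TMM within library type, robust quasi-likelihood test), for 13329 genes reaching a sum of 10 counts in RF and 10 in total RNA, which all 10 members did. The TE change is the interaction of library type and treatment. P-values were adjusted by Benjamini-Hochberg over these genes. A prior count of 2 entered the log2 TE of a culture. Alternatives used DESeq2 1.42.0, limma 3.58.1, other filters and scalings, blocks and leaving out cultures. The members' 95% intervals reached up to 3.06-fold in RF (ATF3) and 3.41-fold in TE (IER2). The absence of calls in RF and TE therefore does not show equal levels. Labels number the replicates, so p-values cover the spread between these cultures. Bulk RNA cannot tell fewer cells expressing a gene from less RNA per cell. Protein sequences were not analysed here, and RefSeq promoter windows of FOSL1 and IER3 were not used here. Some cell type markers are not reported here.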

Additional observations from a re-analysis of the deposited data

How the results depend on the processing

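Over all alternatives run, 0 members were called in total RNA, RF or TE, and the members' median log2 change stayed between -0.025 and 0.0065 in total RNA, -0.069 and 0.072 in RF and -0.14 and 0.023 in TE. Counts over all genes did move. DESeq2 called 29 genes in total RNA, 5 in RF and 1236 in TE (654 higher, 582 lower), limma-trend called 1 gene in total RNA under each FPKM setting, and the RF fit with no count filter called 20. Leaving out 1 culture at a time gave 0 to 687 genes in total RNA and 0 to 396 in TE, both highest without DMSO replicate 3 (683 higher and 4 lower in total RNA, 65 higher and 331 lower in TE), and 0 to 5 in RF; the cause was not tested. Equal numbers did not pair the cultures (correlations of deviations -0.20 to -0.10 in total RNA and -0.090 to -0.046 in RF), and a replicate block called 0 genes in total RNA, 6 in RF and 1 in TE. Under it ATF3 moved to 0.64 in RF and 0.43 in TE and FOSL2 to 0.15 in RF, and a culture block moved ATF3 TE to 0.35. Of 440 alternative values, 46 changed the sign of a member that was called nowhere. ATF3 RF was 0.0065 with DESeq2 size factors, 0.025 in DESeq2's test and 0.024 under a stricter filter, and ATF3 TE was 0.019 in DESeq2's test. With TMM over all libraries TE was -0.014 for FOSL1 and -0.010 for FOS. Leaving out DMSO cultures 1 and 2, chosen after seeing the data, leaves 1 DMSO culture that is assumed to vary like the 3 rapamycin cultures, so its 0 calls say little. It gave 0.0022 for FOSL1 RNA, 0.13 for DUSP1 RF, -0.12 for FOS RF, 0.065 for DUSP1 TE, -0.082 for FOS TE and 0.055 for JUN TE. Leaving out the smallest RF culture of each treatment, also chosen after seeing the data, gave -0.095 for FOSL1 RF, -0.041 for FOS RF and -0.031 for FOSL1 TE. Leaving out single cultures gave -0.019 to 0.068 for JUNB and -0.039 to 0.19 for EGR1 in total RNA. In RF the ranges were -0.31 to 0.059 for DUSP1, -0.11 to 0.22 for FOSL1, -0.054 to 0.065 for FOS, -0.57 to 0.29 for FOSL2, -0.40 to 0.041 for JUN, -0.41 to 1.61 for ATF3, -0.93 to 0.093 for IER2 and -0.15 to 0.22 for EGR1. In TE they were -0.012 to 0.14 for FOS, -0.32 to 0.16 for JUN, -0.072 to 0.24 for FOSL1, -0.59 to 1.66 for ATF3, -1.31 to 0.0013 for IER2 and -0.13 to 0.045 for EGR1. Over all genes tested, edgeR's common biological coefficient of variation was 54.9% in RF against 5.31% in total RNA. The wide RF and TE intervals mean that 0 calls there do not show that members were unchanged.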
